A study of Macaca mulatta with 4 samples.

Results

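Chromosome 16 of the rhesus macaque held 632 of the 20750 HIF-1α peaks in this study, 412 of 13351 at 6 h after coronary artery ligation and 220 of 7399 at 4 weeks. Of all peaks, 8359 at 6 h and 4135 at 4 weeks lay on the numbered chromosomes, X and Y. Peaks on other sequences of the lists are left out of the values given below for all or for other chromosomes. Members were all peaks that the deposited lists place on chromosome 16, a chromosome chosen by its peak density, which came second among the 20 numbered chromosomes at both times. The study asked how copper bears on HIF-1 activity in the infarcted heart, and compared HIF-1 binding early and late after infarction. All samples were heart tissue of male rhesus monkeys with ischemic infarction after ligation of the LAD, a main artery of the left ventricle: at each of 6 h and 4 weeks there was 1 library made with an antibody against HIF-1α and 1 input library without antibody. No heart without ligation was analysed here. How many animals stood behind a library is not given in the sources used here, and with peak positions alone the tissue label could not be checked against marker genes.

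HIF-1 is a transcription factor made of an oxygen-regulated α subunit and a stable β subunit. With oxygen at hand the α subunit is hydroxylated and degraded. When oxygen falls, it builds up, pairs with the β subunit and binds hypoxia response elements near genes for glycolysis, vessel growth and survival, VEGFA being the classic example in ischemic heart. Rhesus chromosome 16 corresponds to human chromosome 17, which is rich in genes. In the RefSeq gene table of assembly T2T-MMU8v2.0, chromosome 16 carries NOS2 (the inducible nitric oxide synthase), ALDOC (a glycolytic aldolase), SLC2A4 (the insulin-responsive glucose transporter), ACE (angiotensin-converting enzyme), COL1A1 (the main chain of type I collagen), CCL2 (which attracts monocytes) and MYL4 (the atrial myosin light chain). VEGFA and HIF1A are on chromosomes 4 and 7 in that table. The lists use another build that the sources used here do not name, so no peak was assigned to a gene. The peaks are given by position only, in the files' own coordinates counted from 1.

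The first comparison is the number of peaks at the 2 times. On chromosome 16 the early list had 1.87 peaks for each late one, against 2.03 over all other chromosomes. Early peaks stood at 5.34 per Mb (95% Poisson interval 4.84 to 5.88) and late peaks at 2.85 per Mb (2.49 to 3.25), while the other numbered chromosomes had 3.02 and 1.496. These densities are what the chromosome was chosen for and support nothing further. Called peaks covered 122 kb of the chromosome at 6 h and 66.2 kb at 4 weeks. The late list supplied 34.8% of the peaks on chromosome 16 (exact 95% interval 31.1 to 38.7%), and 33.0% on all other chromosomes, a value inside that interval. On chromosome 19, the densest, this share was 36.7% (32.7 to 40.8%), and on chromosome 20 it was 39.0% (34.7 to 43.4%). With 1 peak list per time there is no replicate, hence no test, and all intervals cover counting error only and treat neighbouring peaks as independent.

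The second comparison is where along the chromosome the peaks lay. Early peaks ran from 570549 to 77178858 and late peaks from 608503 to 77149926. The last peak end was taken as the end of the chromosome, so any length beyond it was not measured. In windows of 1 Mb, 65 of 78 windows held peaks of both lists, 6 held early peaks only, 4 held late peaks only and 3 held none. The median window had 5 peaks at 6 h and 2.5 at 4 weeks. Early peaks were more numerous in 57 windows, late peaks in 11, and 10 windows had equal numbers. With the longer early list, an excess of early peaks in most windows follows from list length. Windows rich in early peaks tended to be rich in late ones, with a Spearman rho of 0.44 over the 78 windows (0.39 to 0.57 with other window sizes and offsets), given as a description because the windows share 2 lists and a genome.

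**Figure D1:**
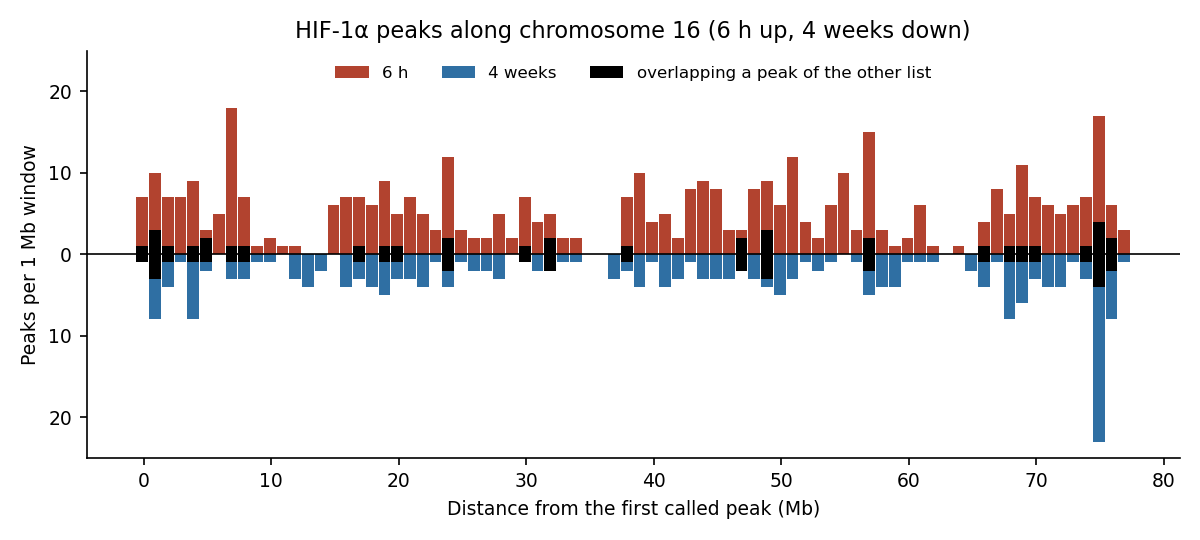
Peaks per 1 Mb window along chromosome 16, plotted by distance from the first called peak in Mb; bars above the line are the 6 h list, bars below it the 4-week list, and black parts are peaks that overlap a peak of the other list. The tallest late bar is the window of 23 late and 17 early peaks close to the far end, and 3 windows hold no peak of either list.

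The far end of chromosome 16 was the only place where a crowded window held more late than early peaks. Of the 8 windows with at least 15 peaks of both lists together, the one from 75000001 to 76000000 was the fullest, with 17 early and 23 late peaks, and the late share there was 57.5% (40.9 to 73.0%). In the other 7 the late share ran from 14.3 to 47.1%. The most one-sided of them was the window from 7000001 to 8000000, which had 18 early peaks and 3 late ones, a late share of 14.3% (3.05 to 36.3%). Next came the window from 51000001, with 12 early and 3 late peaks. Windows from 24000001 (12 and 4) and 57000001 (15 and 5) each had a late share of 25%. The window from 69000001 had 11 and 6. Near the start of the chromosome the lists were closer to even, with 10 early and 8 late peaks in the window from 1000001 and 9 and 8 in the window from 4000001.

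Taken to its end, the stretch from 75000001 to 77178858 held 26 early and 32 late peaks, or 6.31% of the early and 14.5% of the late list on this chromosome. It held 11.9 early peaks per Mb (7.79 to 17.5) and 14.7 late ones (10.05 to 20.7), beside 5.15 and 2.51 on the rest of the chromosome. The late share was 55.2% (41.5 to 68.3%) in this stretch and 32.8% (28.9 to 36.8%) before it, 2 intervals that do not overlap. This stretch was picked after its values were seen, so the contrast is a description. At the near end, the first 2 Mb held 17 early and 9 late peaks, a late share of 34.6% (17.2 to 55.7%). The last 2 Mb held 22 and 26, a late share of 54.2% (39.2 to 68.6%), and these intervals overlap. Density in the first 2 Mb was 8.5 early (4.95 to 13.6) and 4.5 late peaks per Mb (2.06 to 8.54). Between the 2 ends there were 5.10 and 2.53 per Mb, both inside those intervals. In the far stretch, 5 late peaks between 75011831 and 75073108 followed one another with no early peak among them, the nearest early peak starting at 75092317. Farther on, the second widest late peak of the chromosome, at 75150143 to 75150982 (840 bp), took in a whole early peak of 199 bp at 75150480 to 75150678. The last early peak, at 77178109 to 77178858, was 750 bp wide and had no late peak within 28.2 kb.

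Long stretches had few or no peaks. In the early list the longest peak-free stretches were 34867046 to 38274607 (3.41 Mb), 12782759 to 15674556 (2.89 Mb) and 62142459 to 64817256 (2.67 Mb). In the late list they were 62039559 to 65529136 (3.49 Mb), 34844320 to 37131997 (2.29 Mb) and 5348574 to 7336283 (1.99 Mb). Both lists were thus sparse in 2 places, around 35000001 to 37000000 and 63000001 to 64000000, where all 3 empty windows lay. The remaining stretches were sparse in 1 list. The early gap from 12782759 to 15674556 held 7 late peaks, spread from 12871441 to 14202162, with widths of 199 to 363 bp. The late gap from 5348574 to 7336283 held 9 early peaks, of 199 to 504 bp. Between 9000001 and 15000000 as a whole there were 5 early peaks and 11 late ones, a late share of 68.8% (41.3 to 89.0%). This stretch takes in most of the early gap from 12782759 and was picked after its values were seen. Its low early count thus follows from the choice. Late peaks were sparse there too, at 1.83 per Mb beside 2.85 on the whole chromosome. None of the peaks in this stretch overlapped the other list, beside 8.54% of early and 17.3% of late peaks over all chromosomes. So few peaks cannot show a difference from those shares. The late peaks at 37131998, 37881338 and 37989987, which lay inside the longest early gap, all had the narrowest width of 199 bp. Whether reads could be mapped in the empty stretches was not tested.

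The third comparison is peak width, which the choice of chromosome did not use. Widths on chromosome 16 were alike at both times. Early peaks had a median width of 257.5 bp (quartiles 210 and 343 bp, 95% interval of the median 246 to 267 bp). Late peaks had one of 263.5 bp (quartiles 213 and 348 bp, interval 246 to 290 bp). On all other chromosomes the medians were 253 and 260 bp, both inside these intervals. Peaks of at least 400 bp made up 15.8% of the early list (65 peaks) and 14.5% of the late list (32 peaks) on chromosome 16, beside 14.7 and 14.4% elsewhere. The smallest width in either list was 199 bp. On chromosome 16, 78 early peaks or 18.9% (15.3 to 23.1%) had it, beside 23.3% on the other chromosomes, a value just above the interval. For late peaks the shares were 14.1% (9.78 to 19.4%) and 16.8%.

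At 6 h the 5 widest were at 49106516 to 49107406 (891 bp), 20812821 to 20813611 (791 bp), 69159742 to 69160522 (781 bp), 19337804 to 19338569 (766 bp) and 18349554 to 18350317 (764 bp). The first and the second overlapped a late peak, while the nearest late peak lay 57.2 kb, 103 kb and 154 kb from the others. At 4 weeks the 5 widest were at 1949429 to 1950609 (1181 bp), 75150143 to 75150982 (840 bp), 1950779 to 1951551 (773 bp), 47701716 to 47702396 (681 bp) and 5026833 to 5027490 (658 bp). All of these overlapped an early peak except the one at 1950779, which lay 132 bp from one. None of the 5 widest early peaks overlapped any of the 5 widest late ones, though the widest early peak overlapped the late one of width rank 10. Over all chromosomes and widths, 8.54% of early and 17.3% of late peaks overlapped the other list.

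**Figure D2:**
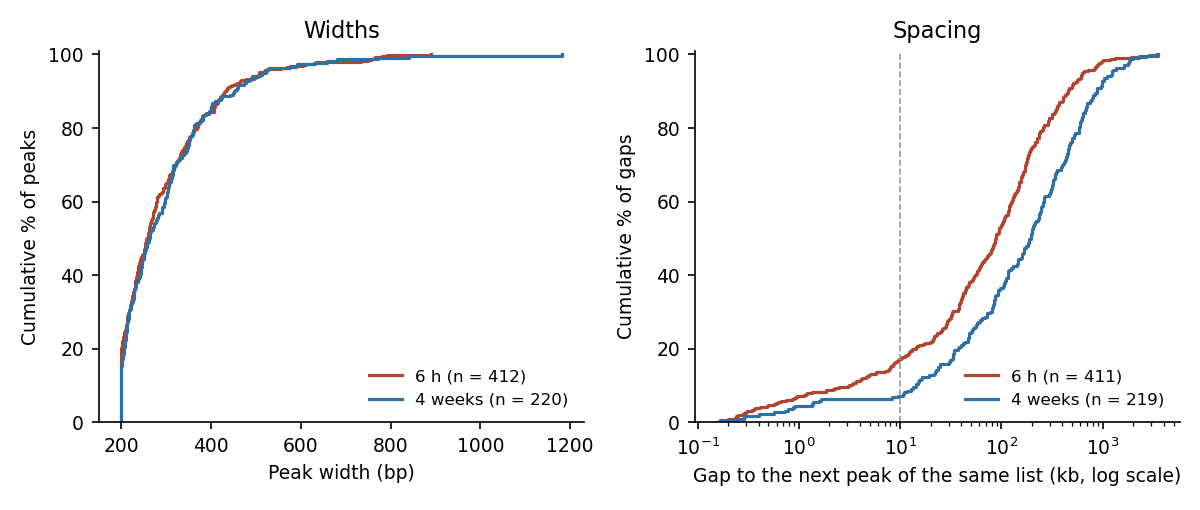
Cumulative share of chromosome 16 peaks by width in bp (left) and of gaps between neighbouring peaks of 1 list by length in kb on a log axis (right), with the 6 h list in red, the 4-week list in blue and a dashed line at 10 kb. The width curves lie on each other (medians 257.5 and 263.5 bp), while the late gaps are longer (medians 87.3 and 195 kb).

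The fourth comparison is spacing. Neighbouring early peaks were a median of 87.3 kb apart (quartiles 25.6 and 204 kb) and late peaks 195 kb (51.7 and 463 kb). The means were 186 and 349 kb, which list length fixes by construction. Of the early gaps, 71 of 411 or 17.3% (13.7 to 21.3%) were at most 10 kb, and 29 were at most 1 kb. Among late gaps 16 of 219 or 7.31% (4.23 to 11.6%) were at most 10 kb, and 10 were at most 1 kb. On all other chromosomes, where peaks were sparser, the shares up to 10 kb were 14.1 and 7.11%. Isolated peaks, those with no peak of the same list within 10 kb, made up 70.4% of the early list on chromosome 16 (65.7 to 74.8%) against 77.2% elsewhere and 71.6% (66.6 to 76.2%) on chromosome 19, the densest. In the late list they made up 86.8% (81.6 to 91.0%) against 86.6% elsewhere, although chromosome 16 was denser. On chromosome 19, by contrast, 72.1% of late peaks were isolated (65.4 to 78.1%), an interval that lies below that of chromosome 16. On chromosomes 20 and 10, next in late density, the shares were 81.1% (74.9 to 86.3%) and 85.7% (80.1 to 90.2%). Both intervals overlap that of chromosome 16.

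Groups of at least 3 peaks with gaps of at most 10 kb numbered 11 at 6 h, with 42 peaks, and 2 at 4 weeks, with 7 peaks. They held 10.2% of early peaks (7.45 to 13.5%) and 3.18% of late peaks (1.29 to 6.45%), beside 8.71 and 1.89% on all other chromosomes, values inside these intervals. The early groups spanned 3.83 to 16.3 kb, and late peaks lay in 4 of the 11. On all other chromosomes, 36 groups with at least 5 peaks were early and 2 were late. On chromosome 16 all 3 such groups came from the early list, which is the longer one. The largest, at 55873907 to 55886265, had 6 early peaks of 199 to 633 bp, and the nearest late peak was 677 kb away. The group at 24972968 to 24986896 had 5 early peaks of 224 to 629 bp and its nearest late peak at a distance of 36.4 kb, which is the late peak of an overlapping pair at 24936211 to 24936610. The group at 54947564 to 54963822 had 5 early peaks of 220 to 305 bp and took in 1 late peak, at 54954067 to 54954283, which lay 853 bp from the nearest early one. At 2327513 to 2337434 a group of 3 early peaks also took in 1 late peak without overlap.

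Close to the start of the chromosome both lists formed a group, at 1946818 to 1950646 with 3 early peaks and at 1947699 to 1952299 with 4 late ones. Late peaks there were wide, from 349 to 1181 bp, and covered 61.1% of their span, while the early peaks were 199 to 252 bp wide and covered 18.2% of theirs. Of these, 2 early peaks and 2 late ones overlapped. The early peak at 1950402 to 1950646 (245 bp) met the widest late peak of the chromosome at its end, with midpoints 505 bp apart, the largest offset of any pair. The other late group, at 75244447 to 75255838, had 3 peaks, 1 of them overlapping an early peak at 75254114 to 75254312. Near 49106516, an early group at 49106009 to 49117715 had 4 peaks, and 2 of them were paired with late peaks.

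The fifth comparison is how many sites the lists have in common. On chromosome 16, 37 of 412 early peaks or 8.98% (6.40 to 12.2%) overlapped a late peak by at least 1 bp, beside 8.54% of early peaks on all chromosomes. Of the late peaks, 36 of 220 or 16.4% (11.7 to 21.9%) overlapped an early peak, beside 17.3% on all chromosomes. Both shares were thus near the background, though their intervals also allow higher or lower ones. On chromosome 19 the shares were 8.52% (5.82 to 11.9%) and 15.2% (10.6 to 20.9%). On chromosome 20 they were 15.3% (11.5 to 19.8%) and 23.5% (17.7 to 30.04%), intervals that overlap those of chromosome 16. The remaining 375 early and 184 late peaks of chromosome 16 overlapped no peak of the other list.

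**Figure D3:**
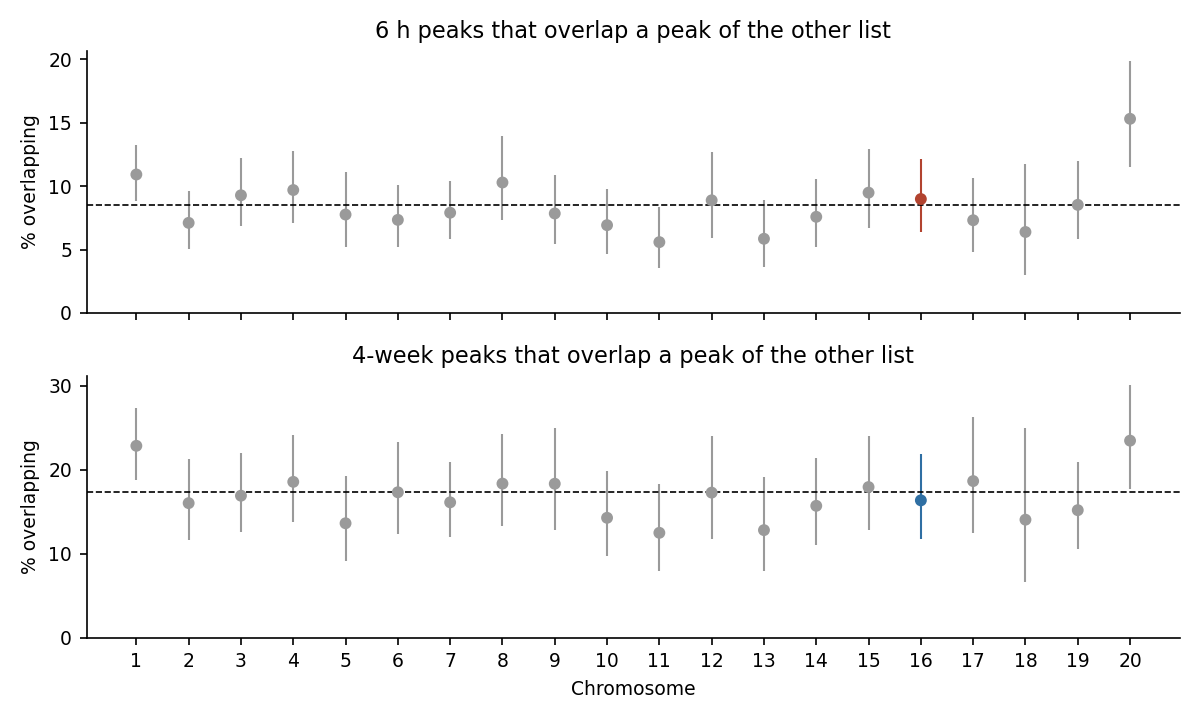
Share of 6 h peaks (top) and of 4-week peaks (bottom) on each numbered chromosome that overlap a peak of the other list, in percent with exact 95% intervals; chromosome 16 is coloured and the dashed lines are the shares over all chromosomes (8.54 and 17.3%). Chromosome 16 sits next to the lines, at 8.98 and 16.4%, while chromosome 20 lies above both.

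Early peaks that overlapped a late one had a median width of 333 bp and the remaining early peaks one of 254 bp. For late peaks these medians were 348.5 and 252 bp. The same contrast was seen on all other chromosomes, with 318 and 249 bp for early and 313.5 and 253 bp for late peaks. Over all chromosomes and widths, 8.54% of early and 17.3% of late peaks overlapped the other list. In the widest 25% of the early list (344 bp and up) 18 of 103 peaks overlapped, 17.5% (10.7 to 26.2%), against 5 of 103 in the narrowest 25%, 4.85% (1.59 to 11.0%). The parts between, from narrower to wider, had 8 and 6 of 103, 7.77 and 5.83%, with no steady rise. In the late list the widest 25% (349 bp and up) had 18 of 55, 32.7% (20.7 to 46.7%), and the narrowest 25% had 5 of 55, 9.09% (3.02 to 19.95%), with 4 and 9 of 55 in the parts between. A wider peak also has more room to overlap, and how much of the difference that makes was not tested.

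The peaks formed 37 overlapping pairs, since the late peak at 5026833 to 5027490 met 2 early peaks, at 5026693 to 5027057 and at 5027307 to 5027727. Overlaps ran from 33 to 525 bp with a median of 199 bp. Midpoints were a median of 90 bp apart, and in 19 pairs at most 100 bp apart. The early peak was wider in 18 pairs and the late peak in 19. That is 48.6% with a wider early peak (31.9 to 65.6%), beside 53.9% of the 686 pairs on all other chromosomes. In 6 pairs the late peak lay wholly inside the early one, in 6 the early peak lay inside the late one, and 25 overlapped in part. Early and late width within a pair had a Spearman rho of 0.12, a description over 37 sites that share 2 libraries.

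**Figure D4:**
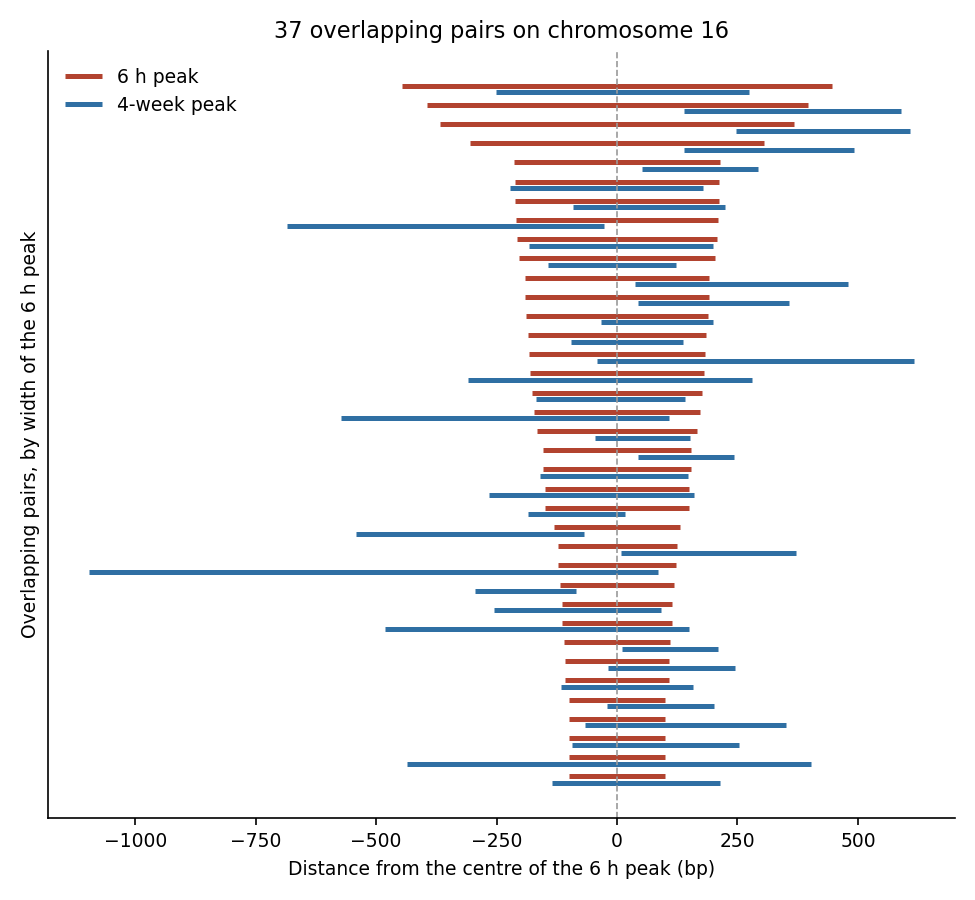
The overlapping pairs of chromosome 16, 1 per row and ordered by the width of the 6 h peak, drawn as distance in bp from the centre of the 6 h peak; red bars are 6 h peaks and blue bars 4-week peaks. Most blue bars cross the centre of the red one (median offset 90 bp), and the longest blue bar is the 1181 bp late peak, which reaches out to one side of a 245 bp early peak.

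The pair that ranked widest in both lists was at 49106516 to 49107406 in the early list (891 bp, the widest there) and at 49106711 to 49107235 in the late list (525 bp, the tenth widest), with midpoints 12 bp apart and the late peak wholly inside the early one. Next to it lay a pair with almost the same borders at both times, 49106009 to 49106314 early (306 bp) and 49106003 to 49106309 late (307 bp). Ahead of these, a further pair had an early peak at 49015494 to 49015899 and a late one at 49015553 to 49015819. This place thus held 3 of the 37 pairs. In 8 of the 36 steps from a pair to the next one along the chromosome, the early peaks started less than 100 kb apart.

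In 11 pairs both peaks were in the widest 25% of their list, and the 10 highest in summed rank were of different kinds. Besides the pair at 49106516, midpoints lay close in 3: at 24936222 to 24936644 early (423 bp) the late peak was 400 bp with midpoints 22.5 bp apart, at 2273116 to 2273530 (415 bp) it was 382 bp and 7.5 bp apart, and at 70494605 to 70494966 (362 bp) they were 14.5 bp apart, though the late peak was wider, at 591 bp. In the others the peaks were displaced. The late peak at 20813355 to 20813804 shared 257 bp with the early one at 20812821 to 20813611, and midpoints were 363.5 bp apart. At 38841165 to 38841899 early and 38841780 to 38842139 late only 120 bp were shared and midpoints were 427.5 bp apart. At 30316121 to 30316732 early and 30316565 to 30316917 late they shared 168 bp. At 1522183 to 1522564 early and 1522411 to 1522853 late they shared 154 bp. The remaining ones were the pairs of the late peak at 5026833, with 225 and 184 bp shared. A list of positions does not say whether displaced peaks hold 1 binding site or more.

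Pairs were unevenly placed. The longest stretches without one were 8181745 to 17369343 (9.19 Mb, with 23 early and 18 late peaks), 57762877 to 66769546 (9.01 Mb, 18 and 15) and 38842140 to 47643065 (8.80 Mb, 51 and 22). The last of these held the most peaks at both times. These stretches were picked for holding no pair, so the lack of overlap in them follows from the choice. Over all chromosomes 8.54% of early and 17.3% of late peaks overlapped the other list. The first 5 Mb held 6 pairs' early peaks, and the 2.18 Mb from 75000001 held another 6.

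Peaks without overlap were seldom close to a peak of the other list. Among late peaks, 17 or 7.73% (4.57 to 12.1%) lay up to 1 kb from an early peak without overlap and 18 or 8.18% (4.92 to 12.6%) at 1 to 10 kb, while 97 or 44.1% lay at 10 to 100 kb and 52 or 23.6% (18.2 to 29.8%) farther off. The nearest early peak of a late peak without overlap was a median of 46.7 kb away, and at most 1.42 Mb, for the late peak at 14201880. Among early peaks, 17 or 4.13% lay up to 1 kb from a late peak, 28 or 6.80% at 1 to 10 kb, 154 or 37.4% at 10 to 100 kb and 176 or 42.7% (37.9 to 47.7%) farther. On all other chromosomes 37.2% of late peaks and 56.3% of early peaks were over 100 kb from the other list, which a lower density gives by construction. The shares up to 1 kb elsewhere were 7.59 and 4.69%, and those at 1 to 10 kb were 6.16 and 5.24%. These shares, all within 10 kb, were inside the intervals of chromosome 16. At 10 to 100 kb the late and early shares elsewhere were 31.7 and 25.3%. They lay below the intervals of chromosome 16 (37.4 to 50.9% and 32.7 to 42.2%), and the shares over 100 kb lay above its intervals. Density was lower on the other chromosomes.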

How the data were processed

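The data are 2 deposited lists of HIF-1α ChIP-seq peaks (1 at 6 h, 1 at 4 weeks), with 3 columns: sequence name, start and end. The submitters' processing notes name Bowtie2 2.0 and MACS2. Per the file names the authors called each ChIP library against the input of its time point. Their settings, the build, filters and pooling are unstated in the sources used here; without scores or summits, depth is unknown. Starts were read as 0-based, as in BED files; if they are 1-based, starts and widths change by 1 bp.

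Lists were grouped by the labels' titles. Overlaps were computed with bedtools 2.31.1, gaps, groups and windows (by peak midpoint) with scipy 1.17.1, numpy 2.4.6 and pandas 2.3.3 under Python 3.11.15, and figures drawn with matplotlib 3.10.9. The extent of the chromosome, 77178858 bp, was its last peak end, a lower bound. Intervals are exact Clopper-Pearson (shares), exact Poisson (densities) or from order statistics (medians). The scripts were tested on simulated lists. Named were the 5 widest peaks and 3 longest gaps of each list, windows with at least 15 peaks, groups with at least 5 peaks or peaks of both lists, and the 10 pairs ranking widest in both; other positions were chosen after their values were seen. The chromosome and these rules were chosen with earlier results of these data known. The planned search for motifs and genes at peaks needs a genome of the files' build and was not run.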

Additional observations from a re-analysis of the deposited data

How the results depend on the processing

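Across 39 alternative values, 13 left the 95% interval of the share or median given above (for counts, a range of 1.5 times either way) and 26 did not. Leaving out the far end from 75000001, an alternative added after the data were seen, gave a late share of 32.8% and overlap shares of 8.03 and 15.96%, all within the intervals. The widest 50% of each list left 197 early and 122 late peaks, fewer by construction. With isolated peaks only, the late share was 39.7% (35.3 to 44.2%), beside 35.6% on all other chromosomes. The early median width was 268 bp after merging within 1 kb and 278 bp without the narrowest peaks. A reciprocal overlap of 50% left 4.37% of early and 8.18% of late peaks shared, and midpoints within 1 kb gave 22.3% of late peaks. Windows with peaks of both lists were 55.5% at 0.5 Mb and 100% at 5 Mb. Late groups numbered 1 with gaps to 5 kb, and with at least 5 peaks there were 3 early groups and 0 late ones. Smaller lists and other window sizes are part of these settings; other causes were not tested. No paired analysis was possible because early and late infarct have 1 ChIP library each. Without read numbers, how many sites were missed at either time for lack of reads cannot be said.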
